A study of Mus musculus with 3 samples.

Results

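Adventitial fibroblasts of the mouse lacrimal gland (LG) were taken from single-cell RNA sequencing as the cells that carried fibroblast collagen and proteoglycan transcripts together with transcripts of *Pi16*, *Dpp4* or *Ackr3*. Among the barcodes called as cells, those with more than 500 unique molecular identifiers (UMIs, which count each captured RNA molecule once), more than 200 genes and under 15% of UMIs from mitochondrial genes were kept. A kept cell was an adventitial fibroblast if it had at least 4 UMIs of *Col1a1*, *Col1a2*, *Col3a1*, *Dcn* and *Lum* in sum, at least 2 UMIs of *Pi16*, *Dpp4* and *Ackr3* in sum, and no UMI of the leukocyte gene *Ptprc*, the epithelial gene *Epcam* or the endothelial genes *Pecam1* and *Cdh5*. This gate of 12 genes gave 283 cells of 19592 kept cells: 192 of 8298 in the female library, 37 of 5582 in male library 1 and 54 of 5712 in male library 2. Values are given in this order of libraries throughout.

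The LGs came from untreated C57BL/6J mice aged 2 months, with 1 female and 2 male libraries, each made from a pool of 6 glands of 3 animals. The female and the male libraries came from separate core facilities and dates, so an effect of sex cannot be told apart from one of core or date, and 1 female library allows no test of sex. Since each library is a pool, p-values below measure the spread between libraries and not that between animals. The cells of a library share 1 suspension, so they are not replicates, and all tests between sets of cells were made on UMIs summed per library.

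Adventitial fibroblasts surround the larger vessels and ducts of many organs. They are known as a reservoir of mesenchymal progenitors, marked by the secreted peptidase inhibitor *Pi16* and the surface peptidase *Dpp4*, and they build the elastic and collagenous sheath of the vessel wall. Parenchymal fibroblasts lie between the secretory units and supply the epithelium with growth factors and basement membrane components. *Ackr3* encodes a scavenger receptor for the chemokine CXCL12, *Fn1* encodes the matrix glycoprotein fibronectin, and *Cd34* encodes a sialomucin of the surface of stromal and vascular progenitors.

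*Pi16* (ENSMUSG00000024011) lies on chromosome 17 at 29317680 to 29330593 (plus strand, mm10), *Dpp4* (ENSMUSG00000035000) on chromosome 2 at 62330073 to 62412231 (minus strand) and *Ackr3* (ENSMUSG00000044337) on chromosome 1 at 90203980 to 90216751 (plus strand). *Fn1* (ENSMUSG00000026193) lies on chromosome 1 at 71585520 to 71653200 (minus strand) and *Cd34* (ENSMUSG00000016494) on chromosome 1 at 194938819 to 194961279 (plus strand). The annotation lists each of these as a protein-coding gene, and the counts are per gene.

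Most of the adventitial fibroblasts entered the gate through *Pi16*. A *Pi16* UMI was present in 264 of the 283 cells (93.3%), an *Ackr3* UMI in 174 (61.5%) and a *Dpp4* UMI in 130 (45.9%). All of *Pi16*, *Dpp4* and *Ackr3* were found in 91 cells, *Pi16* alone in 75, *Ackr3* alone in 12 and *Dpp4* alone in 2. *Dpp4* was seen in 54.7, 18.9 and 33.3% of the cells of the libraries and *Ackr3* in 76.6, 24.3 and 33.3%, so both were found more often in the female library, which was also the deepest. These values come from the genes that chose the cells and are a description.

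*Pi16* was rare in cells with fewer than 4 fibroblast UMIs that carried *Epcam*, *Ptprc*, or at least 2 UMIs of *Pecam1* and *Cdh5*. It had a UMI in 91.1, 97.3 and 98.1% of the adventitial fibroblasts, and in 0.124, 0 and 0% of the *Epcam* cells, 0.294, 0.302 and 0% of the *Ptprc* cells and 1.05, 0 and 0% of the *Pecam1* or *Cdh5* cells. With 0 cells found, shares of up to 0.238% remain possible in *Epcam* cells, 0.885% in *Ptprc* cells and 3.95% in *Pecam1* or *Cdh5* cells. When each cell was thinned to 1000 UMIs (191, 35 and 47 adventitial fibroblasts were deep enough), 68.1, 80.0 and 83.0% of the adventitial fibroblasts still had a *Pi16* UMI. They had been chosen on *Pi16*, *Dpp4* and *Ackr3* before thinning, so these shares too are a description. *Dpp4* was less particular, with a UMI in 11.7, 13.6 and 12.5% of the *Epcam* cells, where median depths were higher, and *Ackr3* had one in 6.02, 0.775 and 0% of the *Pecam1* or *Cdh5* cells.

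The cells that passed the fibroblast side of the gate numbered 1759, 755 and 528, and the adventitial fibroblasts made up 10.9% of them in the female library (95% exact Clopper-Pearson interval 9.50 to 12.5), 4.90% in male library 1 (3.47 to 6.69) and 10.2% in male library 2 (7.78 to 13.1). After thinning to 1000 UMIs the shares were 6.60, 3.07 and 10.1%. Male library 1 was the lowest in both forms, while the order of the female library and male library 2 depended on thinning. The intervals cover counting error only, and the shares depend on how cells were freed from the tissue.

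Adventitial fibroblasts were compared with the 2759 other gated fibroblasts (1567, 718 and 474), which passed the same gate except that they had fewer than 2 UMIs of *Pi16*, *Dpp4* and *Ackr3*. The adventitial fibroblasts were deeper, and the part that the gate on UMI counts had in this was not tested. Their medians were 3850, 1812 and 1415 UMIs per cell, against 3074, 1517 and 1279.5 in the others. Of their UMIs, 24.9, 49.0 and 64.9% came from 115 genes of tear products, which acinar cells secrete and which reach other cells as free RNA, against 28.4, 49.98 and 61.5% in the other gated fibroblasts. By the profile of barcodes not called as cells, free RNA was estimated at 36.2, 61.8 and 81.7% of their UMIs, against 41.4, 63.0 and 77.4%. The estimate counts all tear-product UMIs as free RNA. It and the tear-product shares are of summed UMIs, where deep cells weigh most. In male library 2 the deepest adventitial fibroblast held 34572 of 161627 UMIs, beside medians of 1415 UMIs per cell and 882.5 outside tear-product genes. Because of the free RNA, levels are given in CPM, the UMIs of a gene scaled to the total of UMIs outside the 115 tear-product genes. The adventitial fibroblasts held 606941, 39546 and 56712 such UMIs, so that 1 UMI stood for 1.65, 25.3 and 17.6 CPM, and a level read as 0 in a male library covers anything up to 75.9 and 52.9 CPM (3 UMIs). The female library thus carried most of the information. No barcode of an adventitial fibroblast was shared between libraries, and scrublet marked 15, 3 and 3 of them as possible doublets, which were kept.

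The genes outside the gate were not used to choose the cells, but they were read in the same cells, so a difference says that a gene goes along with the gate genes. Differences are log2 fold changes from edgeR's quasi-likelihood test with library as a block, and a gene is called where its Benjamini-Hochberg adjusted p is under 0.05. Of 6258 genes tested, 296 were higher in adventitial fibroblasts (4.73%) and 346 lower (5.53%), together 10.3%, with a median of -0.08 over all genes. For 18.5% of the genes tested, the values of the 3 libraries did not overlap between both sets of cells.

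Both label markers outside the gate were higher in adventitial fibroblasts. The paper had named *Fn1* and *Cd34* as high in its adventitial cluster from these same libraries, so their calls are not independent evidence. *Fn1* was at 2485, 1846 and 2222 CPM, against 110, 450 and 320 CPM in the other gated fibroblasts. The sets did not overlap, and the means of 2184 ± 321 and 293 ± 172 CPM (SD, n = 3 libraries) differed by 3.05 on the log2 scale (SE 0.29, edgeR adjusted p = 3.02e-12). An *Fn1* UMI was present in 84.4, 67.6 and 79.6% of the adventitial fibroblasts and 12.0, 20.9 and 16.03% of the other gated fibroblasts, and in no more than 0.906% of the *Ptprc* cells of a library. *Cd34* was at 1036, 961 and 829 CPM against 182, 297 and 239 CPM, again without overlap, a difference of 1.95 (SE 0.24, edgeR adjusted p = 5.41e-09). *Cd34* was not particular to fibroblasts, since 65.3, 34.9 and 23.7% of the *Pecam1* or *Cdh5* cells had a UMI of it. Neither call was lost in any of the 19 alternatives tried.

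The list of adventitial progenitor genes followed the same direction. It was drawn up with earlier results of these data known, so its count is not independent evidence. Of 32 genes, 31 passed the filter on low counts, 28 were higher and 1 lower, with a median of 2.51, and 23 of the 28 were called in every alternative that tested them. *Anxa3*, an annexin, was at 886, 582 and 952 CPM against 9.18, 22.5 and 25.2 CPM, and differed by 5.72 (SE 0.33, edgeR adjusted p = 1.85e-19). *Smpd3*, a neutral sphingomyelinase, was at 590, 202 and 300 CPM against 3.24, 11.2 and 2.52 CPM. The retinaldehyde dehydrogenase *Aldh1a3*, which makes retinoic acid, had 59, 7 and 9 UMIs in the adventitial fibroblasts and 1, 0 and 2 UMIs in the other gated fibroblasts. Summed over libraries, its level was 168 times higher (95% counting interval 55.3 to 832). This interval covers counting error only and not the spread between libraries, and most of the UMIs came from the female library. *Aldh1a3* UMIs lay in 21.4, 16.2 and 13.0% of the adventitial fibroblasts, so it was carried by a minority of them at this depth.

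Other progenitor genes were higher at high levels. *Pcolce2*, which enhances procollagen processing, was at 853, 582 and 793 CPM against 61.9, 59.4 and 45.3 CPM (3.66, SE 0.26, edgeR adjusted p = 1.87e-16), and the surface sialomucin-like gene *Cd248* at 657, 657 and 635 CPM against 101, 244 and 161 CPM. *Clec3b*, which encodes tetranectin, was at 1770, 2099 and 1622 CPM against 735, 824 and 567 CPM. All of these were separated in every library. The calls of *Heg1*, *C3*, *Ugp2*, *Gfpt2* and *Ly6a* were lost in at least 1 alternative. *Scara5* and *Has1* did not pass the test, with 374, 379 and 406 against 244, 308 and 196 CPM for *Scara5* and 62.6, 50.6 and 17.6 against 12.4, 146 and 90.7 CPM for *Has1*.

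Genes were also ranked by difference, whether in a list or not. The 15 genes of the largest positive difference with a mean of at least 50 CPM were called in all alternatives that tested them. Besides *Aldh1a3*, *Smpd3* and *Anxa3*, and *Ccn3* and *Creb5* described with their lists, they held *Car8*, a carbonic anhydrase-related protein, which had 80, 4 and 6 UMIs against 3, 1 and 0, and *Stmn4*, a stathmin, which had 18, 6 and 7 UMIs against 0, 1 and 2. Summed over libraries, *Stmn4* was 69.4 times higher (95% counting interval 21.6 to 355, which leaves out the spread between libraries). *Fndc1*, a fibronectin type III domain protein, was at 588, 303 and 458 CPM against 18.6, 12.9 and 25.2 CPM (4.68, SE 0.31, edgeR adjusted p = 1.38e-17). *Sbsn*, which encodes suprabasin, was at 82.4, 354 and 300 CPM against 5.94, 4.82 and 7.56 CPM. *Efhd1*, *Limch1* and *Opcml*, already counted in the progenitor list, and *Aif1l*, *Arl4d* and *Ston2* were also among them, with differences between 4.45 and 5.72. In each of these the lowest library of the adventitial fibroblasts exceeded the highest of the others. The rule that picked them asked for the same direction in all libraries, so this is a description. Their male levels stood on few UMIs, from 1 of *Arl4d* in male library 1 to 8 of *Efhd1* in male library 2.

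Parenchymal genes were lower. Of 16 tested, 13 were lower and 1 higher, with a median of -1.64, and 7 of the 13 were called in all alternatives. This list too was made with earlier results known. In 1 alternative only adventitial fibroblasts with fewer than 2 UMIs of *Penk*, *Crabp1* and *Cxcl14* were kept. The lower calls of these genes there were fixed by that choice. *Crabp1*, a retinoic acid-binding protein, was at 132, 253 and 176 CPM against 1927, 2170 and 2008 CPM, a difference of -3.68 (SE 0.25, edgeR adjusted p = 5.81e-17). The chemokine *Cxcl14* was at 293, 1113 and 317 CPM against 2014, 2270 and 2048 CPM, and male library 1 was thus the highest of the adventitial fibroblasts. *Penk*, the enkephalin precursor, was at 77.4, 152 and 141 CPM against 318, 1594 and 889 CPM. The apolipoprotein *Apod* was at 1152, 2074 and 952 CPM against 4257, 6217 and 6108 CPM (-2.14, SE 0.21, edgeR adjusted p = 1.03e-11). *Nid1*, a basement membrane linker, was the exception at 1564, 708 and 1199 CPM against 730, 647 and 514 CPM (0.77, SE 0.22, edgeR adjusted p = 0.0149), with overlap between the sets and a call that 7 of 19 alternatives lost, among them those without the female library and without male library 2.

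Genes shared by all fibroblasts showed no common direction, with 3 of 12 higher, 4 lower and a median of -0.08, the same as over all genes. *Dpt*, which encodes the matrix protein dermatopontin, was at 1822, 1138 and 1040 CPM against 389, 394 and 345 CPM, and *Fstl1*, a secreted follistatin-like glycoprotein, at 1549, 1644 and 1393 CPM against 451, 402 and 375 CPM. *Bgn*, the proteoglycan biglycan, was lower, at 689, 784 and 247 CPM against 1256, 1668 and 1441 CPM. These calls stood in every alternative, and the lower call of the receptor gene *Pdgfra* (369, 202 and 106 against 654, 676 and 481 CPM) did not. *Mmp2*, *Vim*, *Igfbp4*, *Serping1* and *Serpinf1* did not pass the test, with differences between -0.47 and 0.30.

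**Figure D1:**
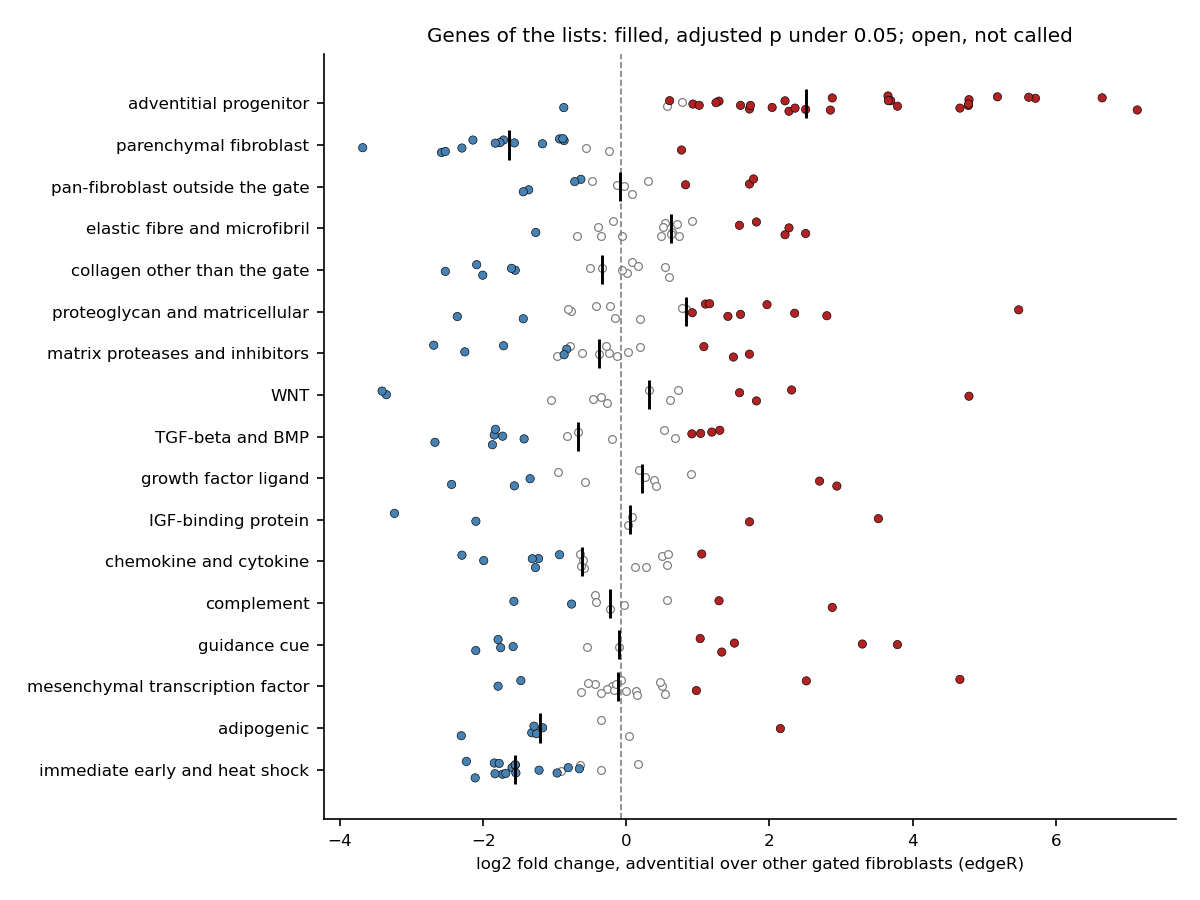
Log2 fold change of each gene of 17 lists, adventitial over other gated fibroblasts from edgeR; filled points were called (red higher, blue lower), open points were not, black bars are list medians and the dashed line is the median of all 6258 genes. The adventitial progenitor list lies to the right with a median of 2.51, the parenchymal and the immediate early lists lie to the left with medians of -1.64 and -1.55, and most other lists lie around the dashed line with genes called on both sides.

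Elastic fibres consist of elastin on a scaffold of fibrillin microfibrils, crosslinked by lysyl oxidases. In the list of 20 such genes, 19 were tested, 5 were higher and 1 was lower, with a median of 0.62. The fibrillin *Fbn1* was at 1246, 1593 and 1340 CPM against 243, 353 and 244 CPM (2.22, SE 0.22, edgeR adjusted p = 1.05e-11). The microfibril protein *Mfap5* was at 1583, 2478 and 1834 CPM against 193, 607 and 453 CPM (2.27, SE 0.23, edgeR adjusted p = 2.24e-11). *Emilin2*, of the elastin-microfibril interface, was at 415, 278 and 564 CPM against 62.4, 64.3 and 90.7 CPM, and the lysyl oxidase-like gene *Loxl1* at 560, 379 and 476 CPM against 172, 138 and 139 CPM. None of these sets overlapped. Elastin itself did not pass the test against the other gated fibroblasts, with *Eln* at 473, 480 and 247 CPM against 234, 249 and 227 CPM (0.70, SE 0.25, edgeR adjusted p = 0.059).

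Of 13 collagen genes outside the gate, none was called higher by edgeR and 5 were lower, with a median of -0.34; at an unadjusted p under 0.05, 2 were higher, and DESeq2 called none higher. The collagen IV chains of basement membranes were among the 5, with *Col4a1* at 489, 430 and 317 CPM against 1020, 1553 and 1081 CPM (-1.55, SE 0.23, edgeR adjusted p = 9.65e-07) and *Col4a2* at 208, 177 and 106 CPM against 489, 704 and 413 CPM. *Col18a1*, another basement membrane collagen, was at 37.9, 50.6 and 17.6 CPM against 139, 235 and 179 CPM (-2.09, SE 0.34, edgeR adjusted p = 4.29e-06). The basement membrane-zone collagen *Col15a1* was at 143, 303 and 0 CPM against 905, 651 and 471 CPM, and it and *Col12a1* lost the call in some alternatives. *Col5a2*, of a fibril-forming collagen, and *Col6a1*, of a microfibrillar one, did not pass the test, with differences of 0.01 and -0.07. When UMI totals replaced TMM scaling, 2 collagen genes became higher calls. The collagens of the gate, which are a description only, ran the other way from its proteoglycans: *Col1a1* was at 4070, 3641 and 2574 CPM against 1633, 2084 and 1385 CPM, and *Dcn* at 10947, 8724 and 9046 CPM against 16861, 18214 and 14607 CPM.

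In the proteoglycan and matricellular list 19 of 26 genes were tested, 9 were higher and 2 lower, with a median of 0.84. *Ccn3*, a secreted CCN-family protein, had 67, 2 and 2 UMIs, a level of 110, 50.6 and 35.3 CPM against 1.62, 6.43 and 0 CPM, and differed by 5.48 (SE 0.42, edgeR adjusted p = 3.88e-15). *Aspn*, the leucine-rich proteoglycan asporin, was at 344, 354 and 282 CPM against 33.0, 91.6 and 42.8 CPM. *Tnxb*, which encodes tenascin-X, was at 442, 582 and 441 CPM against 109, 227 and 159 CPM. These 3 were higher in every library and in every alternative that tested them, while the other 6 higher calls (*Postn*, *Cilp*, *Thbs3*, *Tnc*, *Omd* and *Ogn*) each lost the call in at least 1. *Thbs1*, which encodes thrombospondin 1, was lower, with 51.1, 0 and 0 CPM against 186, 214 and 247 CPM, and also lost the call in some.

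Matrix proteases and their inhibitors gave 3 higher and 5 lower calls among 17 genes, with a median of -0.37. The procollagen N-peptidase *Adamts2* was at 377, 303 and 370 CPM against 96.4, 146 and 83.1 CPM, and *Mmp23* at 152, 303 and 282 CPM against 59.7, 81.9 and 80.6 CPM. The inhibitor *Timp2* was at 2491, 2857 and 2522 CPM against 1121, 1253 and 1040 CPM, although the call was lost without the library block and with free RNA subtracted. Stromelysin 1, encoded by *Mmp3*, was lower, at 756, 607 and 264 CPM against 1898, 1627 and 1398 CPM (-1.71, SE 0.23, edgeR adjusted p = 6.62e-08). The gelatinase *Mmp2* and the membrane-bound *Mmp14* differed by -0.13 and 0.03 and did not pass the test.

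Insulin-like growth factor binding proteins bind IGF in the extracellular space. Of 6 genes, 2 were higher and 2 lower. *Igfbp5* was at 4727, 2807 and 3985 CPM against 710, 162 and 204 CPM (3.52, SE 0.23, edgeR adjusted p = 1.28e-17), and *Igfbp6* at 1860, 2883 and 2186 CPM against 370, 998 and 720 CPM (1.72, SE 0.21, edgeR adjusted p = 8.41e-09). *Igfbp7* was lower, at 746, 961 and 247 CPM against 2832, 2443 and 2028 CPM (-2.10, SE 0.23, edgeR adjusted p = 3.53e-10). *Igfbp3* was also called lower, but it was a gene of the female library, with 655 CPM there and 45.0 and 25.2 CPM in the male libraries of the other gated fibroblasts, against 69.2, 0 and 0 CPM, and the call was lost in some alternatives. The ligand *Igf1* was lower, at 392, 202 and 194 CPM against 646, 1010 and 549 CPM (-1.34, SE 0.26, edgeR adjusted p = 0.000115).

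Among 12 growth factor ligands, 2 were higher and 3 lower. *Vegfd*, a ligand of the lymphatic endothelial growth factor receptor, was at 82.4, 202 and 123 CPM against 9.72, 22.5 and 22.7 CPM (2.94, SE 0.32, edgeR adjusted p = 2.67e-10). *Pdgfd*, a platelet-derived growth factor, was at 41.2, 75.9 and 35.3 CPM against 7.56, 4.82 and 0 CPM (2.70, SE 0.45, edgeR adjusted p = 7.52e-06), where the male levels stood on 3 and 2 UMIs. *Fgf10*, the ligand that drives LG budding, was lower, at 127, 75.9 and 35.3 CPM against 319, 251 and 214 CPM (-1.56, SE 0.30, edgeR adjusted p = 6.76e-05). All of these sets were separated in every library. *Mdk*, which encodes midkine, was called lower but lost the call in some alternatives.

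Of 13 WNT pathway genes tested, 4 were higher and 2 lower, with a median of 0.32, and without the female library 1 higher and 1 lower call was left. The lower genes were *Rspo3* and *Rspo1*, secreted WNT enhancers. *Rspo3* was at 18.1, 0 and 17.6 CPM against 158, 304 and 227 CPM (-3.41, SE 0.39, edgeR adjusted p = 1.32e-09) and *Rspo1* at 8.24, 0 and 0 CPM against 80.2, 38.6 and 37.8 CPM (-3.35, SE 0.53, edgeR adjusted p = 2.1e-06). The higher genes were the secreted frizzled-related *Sfrp4* and *Sfrp2* and the Dishevelled-binding *Dact2* and *Dact1*. *Dact2* was at 47.8, 25.3 and 35.3 CPM against 1.62, 1.61 and 0 CPM, and *Sfrp4* at 196, 50.6 and 212 CPM against 49.2, 11.2 and 10.1 CPM. The calls of *Sfrp2* and *Dact1* were lost in some alternatives, among them that without the female library. The secreted inhibitors *Sfrp1* and *Dkk2* did not pass the test, with differences of -0.26 and 0.32.

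Of 15 TGF-beta and BMP genes, 4 were higher and 6 lower, with a median of -0.68. *Id2* and *Id3*, which are transcription factor inhibitors induced by BMP signals, were the only calls that stood in all alternatives. *Id3* was at 219, 177 and 141 CPM against 566, 855 and 753 CPM (-1.87, SE 0.26, edgeR adjusted p = 1.87e-07), and *Id2* at 110, 75.9 and 70.5 CPM against 332, 320 and 355 CPM (-1.83, SE 0.29, edgeR adjusted p = 2.07e-06). The receptor *Tgfbr2* was at 610, 354 and 335 CPM against 185, 173 and 161 CPM, with a call that was lost without the female library and with free RNA subtracted.

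Guidance cues are secreted proteins and receptors that steer growing axons and vessels. Of 11, 5 were higher and 4 lower. The secreted semaphorins were among the higher, *Sema3c* at 939, 354 and 635 CPM against 38.4, 54.6 and 57.9 CPM (3.79, SE 0.31, edgeR adjusted p = 1.63e-14) and *Sema3b* at 56.0, 75.9 and 35.3 CPM against 5.40, 9.64 and 2.52 CPM (3.30, SE 0.41, edgeR adjusted p = 1.06e-08). *Nrp1* and *Nrp2*, receptors that bind class 3 semaphorins, were called lower, with *Nrp1* at 67.6, 202 and 35.3 CPM against 278, 257 and 196 CPM and *Nrp2* at 16.5, 0 and 0 CPM against 64.6, 40.2 and 40.3 CPM. Both receptor calls, and the higher calls of *Ntn1*, *Ntn4* and *Sema3d*, were lost in some alternatives. Without the female library *Sema3c* kept its call, the number of higher calls in the list fell to 1, and the lower calls were lost or not tested.

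**Figure D2:**
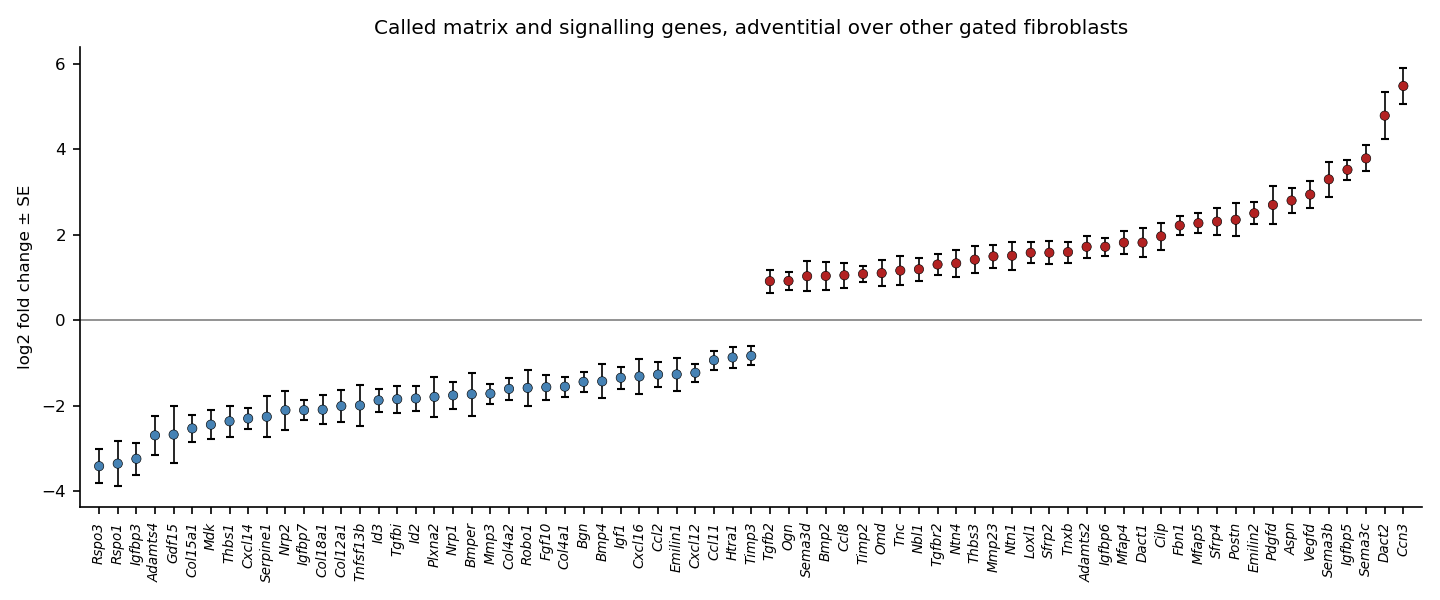
Log2 fold change ± SE from edgeR, adventitial over other gated fibroblasts, for the 71 matrix and signalling genes that were called, ordered by size. The 35 higher genes (red) run up to *Ccn3*, *Dact2* and *Sema3c* and the 36 lower genes (blue) down to *Rspo3* and *Rspo1*.

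Chemokines and cytokines gave 1 higher and 6 lower calls among 16 genes, with a median of -0.62, and only *Cxcl14* was called in all alternatives. In 1 of these the adventitial fibroblasts were chosen for few UMIs of *Penk*, *Crabp1* and *Cxcl14*, which fixed the lower call of *Cxcl14* there. *Cxcl12*, the ligand of the gate receptor *Ackr3*, was at 909, 759 and 458 CPM against 2196, 1224 and 1164 CPM (-1.23, SE 0.22, edgeR adjusted p = 2.01e-05), separated in the libraries but lost without the library block. In the complement list 2 of 9 genes were higher and 2 lower. *Cd55*, which blocks complement on the cell surface, was at 376, 152 and 247 CPM against 33.5, 41.8 and 52.9 CPM (2.88, SE 0.31, edgeR adjusted p = 1.42e-10). The complement component *C2* was lower, at 87.3, 126 and 106 CPM against 204, 442 and 428 CPM.

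Transcription factors of mesenchymal cells mostly did not pass the test, with 3 of 20 higher, 2 lower and a median of -0.11. *Creb5* was at 427, 253 and 212 CPM against 16.5, 8.03 and 10.1 CPM (4.66, SE 0.32, edgeR adjusted p = 6.08e-17), and *Ebf2*, a factor also known from brown fat precursors, at 198, 177 and 247 CPM against 27.3, 48.2 and 47.9 CPM (2.52, SE 0.29, edgeR adjusted p = 9.17e-10). Its relative *Ebf1* differed by 0.15 and did not pass. The nuclear receptor *Nr2f1* was lower, at 168, 75.9 and 70.5 CPM against 567, 281 and 229 CPM (-1.79, SE 0.28, edgeR adjusted p = 2.7e-06). *Prrx1* and *Twist1*, which are general to limb and connective tissue mesenchyme, differed by -0.01 and 0.14 and did not pass.

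Of 8 adipogenic genes, 5 were lower and 1 higher, with a median of -1.21. The lipoprotein gene *Apoe* was at 1005, 860 and 511 CPM against 2769, 4373 and 4410 CPM (-2.30, SE 0.24, edgeR adjusted p = 4.33e-11). Lipoprotein lipase, *Lpl*, was at 618, 430 and 406 CPM against 1447, 1108 and 806 CPM, and the factor *Cebpb* at 221, 354 and 159 CPM against 451, 694 and 642 CPM. Among the 10 genes of the largest negative difference were *Crabp1* and *Rspo3* besides *Saa3*, *Angpt2*, *Rasl11a*, *Fbln7*, *Pakap* (ENSMUSG00000038729), *Lamc3* and *Tmem176a*. The laminin chain gene *Lamc3* was at 9.89, 75.9 and 0 CPM against 158, 313 and 227 CPM, and the vessel-destabilizing ligand *Angpt2* had 3, 0 and 0 UMIs against 413, 38 and 17. Summed over libraries, *Angpt2* was 23.2 times lower (95% counting interval 7.90 to 113) and the acute-phase gene *Saa3*, with 1 UMI against 300, was 44.7 times lower (7.96 to 1770). Both intervals leave out the spread between libraries, and most of the UMIs came from the female library. Without the female library the calls of *Rasl11a* (adjusted p = 0.0947) and *Pakap* (adjusted p = 0.124) were lost.

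Immediate early genes are induced rapidly by growth signals, stress and tissue dissociation. Together with heat shock genes they were lower in adventitial fibroblasts: of 19 genes, 15 were lower and none was called higher by edgeR, with a median of -1.55, and 11 were called in all alternatives. No gene was higher at an unadjusted p under 0.05 in edgeR or DESeq2, which gave 0 each. The number lower ranged from 11 to 17 over the alternatives. Their summed level was 9877, 8699 and 8058 CPM against 25236, 20528 and 20168 CPM. *Fos* was at 1379, 1315 and 1058 CPM against 3243, 3932 and 3428 CPM (-1.59, SE 0.20, edgeR adjusted p = 1.74e-08), and *Egr1* at 1381, 860 and 758 CPM against 4678, 2329 and 2567 CPM (-1.77, SE 0.21, edgeR adjusted p = 1.36e-09).

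Genes of this list differed among themselves. *Zfp36*, whose product destabilizes cytokine mRNAs, was at 512, 228 and 229 CPM against 1885, 1155 and 1370 CPM (-2.23, SE 0.24, edgeR adjusted p = 1.69e-10), and the heat shock gene *Hspa1a* at 308, 228 and 159 CPM against 1149, 437 and 453 CPM. *Atf3* was at 173, 202 and 264 CPM against 132, 220 and 229 CPM and did not pass the test (0.17, SE 0.26, edgeR adjusted p = 0.858). *Dnajb1*, *Btg2* and *Hsp90aa1* did not pass either, with differences of -0.91, -0.65 and -0.35. Both sets of cells of a library came from the same digestion, and the part that position in the tissue or time to release had in this difference was not tested.

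**Figure D3:**
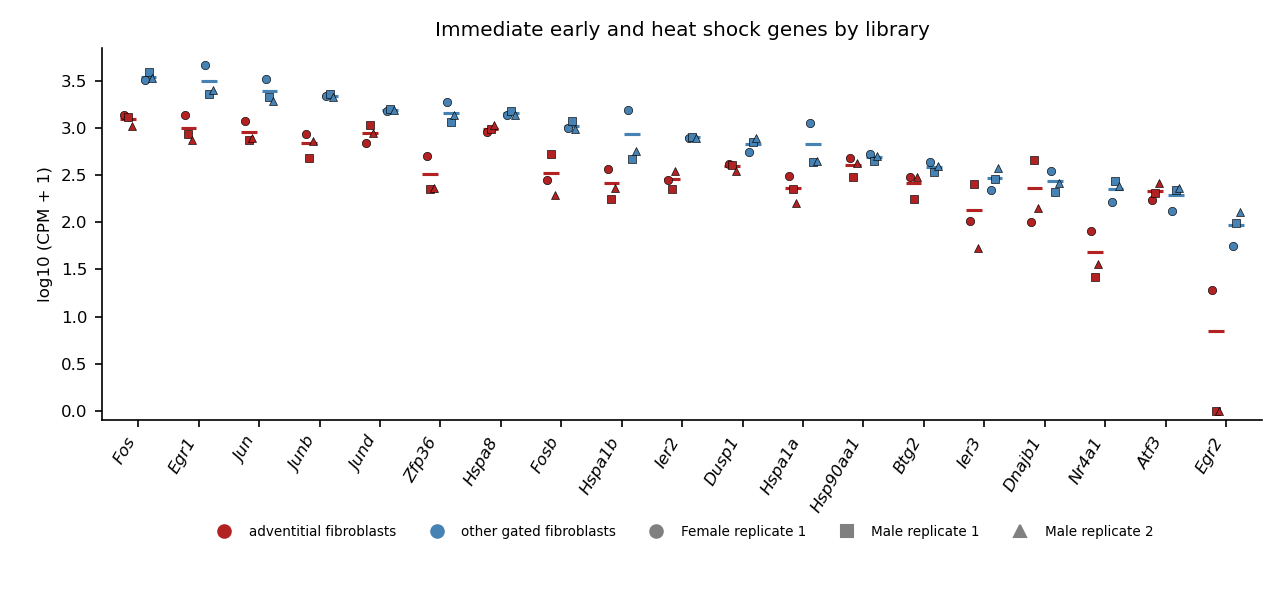
Levels of the 19 immediate early and heat shock genes in each library, as log10 of CPM + 1, in adventitial (red) and other gated fibroblasts (blue), with symbols by library and bars for means. The red points lie below the blue points for *Fos*, *Egr1*, *Jun*, *Junb* and *Zfp36*, and both colours overlap for *Atf3*, *Dnajb1* and *Hsp90aa1*.

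Markers of other cell types were low. Summed over 10 mural cell genes, the level was 359, 354 and 17.6 CPM in adventitial fibroblasts and 557, 297 and 584 CPM in the other gated fibroblasts, with the pericyte genes *Rgs5* and *Mcam* at 0. The 10 immune genes summed to 189, 0 and 70.5 CPM against 453, 173 and 338 CPM, with *Csf1r*, *Trbc2* and *Cd3g* at 0, and the 10 epithelial genes to 171, 354 and 652 CPM against 181, 333 and 476 CPM. The 10 Schwann cell and nerve sheath genes summed to 79.1, 0 and 17.6 CPM against 51.9, 51.4 and 68.0 CPM.

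The 10 endothelial genes summed to more in adventitial fibroblasts, at 201, 177 and 247 CPM against 75.1, 116 and 75.6 CPM, with *Tie1*, *Selp* and *Cldn5* at 0. The angiopoietin receptor *Tek* was the whole sum in male library 2 but the smaller share of it in male library 1, at 150, 50.6 and 247 CPM against 13.5, 8.03 and 7.56 CPM (3.60, SE 0.32, edgeR adjusted p = 8.07e-13), which was called in all alternatives. The 10 mesothelial genes summed to 67.6, 25.3 and 35.3 CPM against 4.59, 3.21 and 7.56 CPM. Of these, 8 were at 0, among them *Msln*, *Upk3b* and *Wt1*, and nearly all of the sum was *Krt19*, a keratin, at 62.6, 25.3 and 35.3 CPM, where the male levels stood on 1 and 2 UMIs.

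A narrower comparison took only the 2120 gated fibroblasts (1214, 562 and 344) that had at least 2 UMIs of *Penk*, *Crabp1* and *Cxcl14*, and none of *Pi16*, *Dpp4* or *Ackr3*, as the other side. It shares the adventitial fibroblasts with the comparison above, so the values are given side by side. Of 5068 genes tested, 284 were higher (5.6%) and 349 lower (6.89%), together 12.5%, with a median of -0.07. *Fn1* was at 56.1, 264 and 195 CPM in these cells, a difference of 3.97 (SE 0.29, edgeR adjusted p = 1.37e-17) beside 3.05 above. *Anxa3* differed by 7.95 (SE 0.35, edgeR adjusted p = 1.99e-27), *Sema3c* by 4.55, *Igfbp5* by 4.29 and *Cd34* by 2.20. The genes *Car8* and *Stmn4* had no UMI in these cells, and their levels were at least 160 and 55.0 times higher in adventitial fibroblasts, against a floor of 3 UMIs over the 3 libraries.

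In this comparison 27 of 30 progenitor genes were higher and 1 lower, with a median of 2.99, and 16 of 19 immediate early and heat shock genes were lower, with a median of -1.58. Elastin was called here, with *Eln* at 473, 480 and 247 CPM against 221, 236 and 202 CPM (0.87, SE 0.23, edgeR adjusted p = 0.00561), but 7 of 14 alternatives lost the call, among them those without the female library and without male library 2. The smooth muscle actin gene *Acta2* was at 142, 75.9 and 0 CPM against 17.7, 21.7 and 51.3 CPM (2.29, SE 0.40, edgeR adjusted p = 7.61e-06), where male library 2 had no UMI and went the other way, and the call was lost with DESeq2 and without the library block. The 26 cells (23, 2 and 1) with at least 2 UMIs of *Pdgfrl* and *Fxyd6* were too few in each male library to be compared.

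The cells just inside the gate stood between both sets in every library for *Anxa3*, *Crabp1*, *Igfbp5* and *Cxcl14*. Those with exactly 2 UMIs of *Pi16*, *Dpp4* and *Ackr3* numbered 31, 9 and 14, and those just outside it, with 1 UMI, 144, 34 and 26. With 1 UMI, *Anxa3* was at 33.1, 148 and 122 CPM and *Crabp1* at 1202, 918 and 1094 CPM. With 2 UMIs, *Anxa3* was at 103, 404 and 791 CPM and *Crabp1* at 582, 404 and 216 CPM. In male library 1 these cells had *Fn1* at 269 CPM and *Col15a1* at 943 CPM, neither of them between both sets. These levels stood on 2 UMIs of *Fn1* and 7 of *Col15a1*. With 8 or more, *Anxa3* was at 1230, 1629 and 1776 CPM and *Crabp1* at 28.6, 326 and 0 CPM. *Igfbp5* went up over the same steps from a mean of 314 CPM in cells with none of these UMIs through 892 and 1929 CPM to 5364 CPM, and *Cxcl14* went down from 2153 to 26.7 CPM. These values lie along the gate and carry no test. Depth ran along it too, with a median of 3037 UMIs per cell at 0 and 4181 at 8 or more in the female library.

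**Figure D4:**
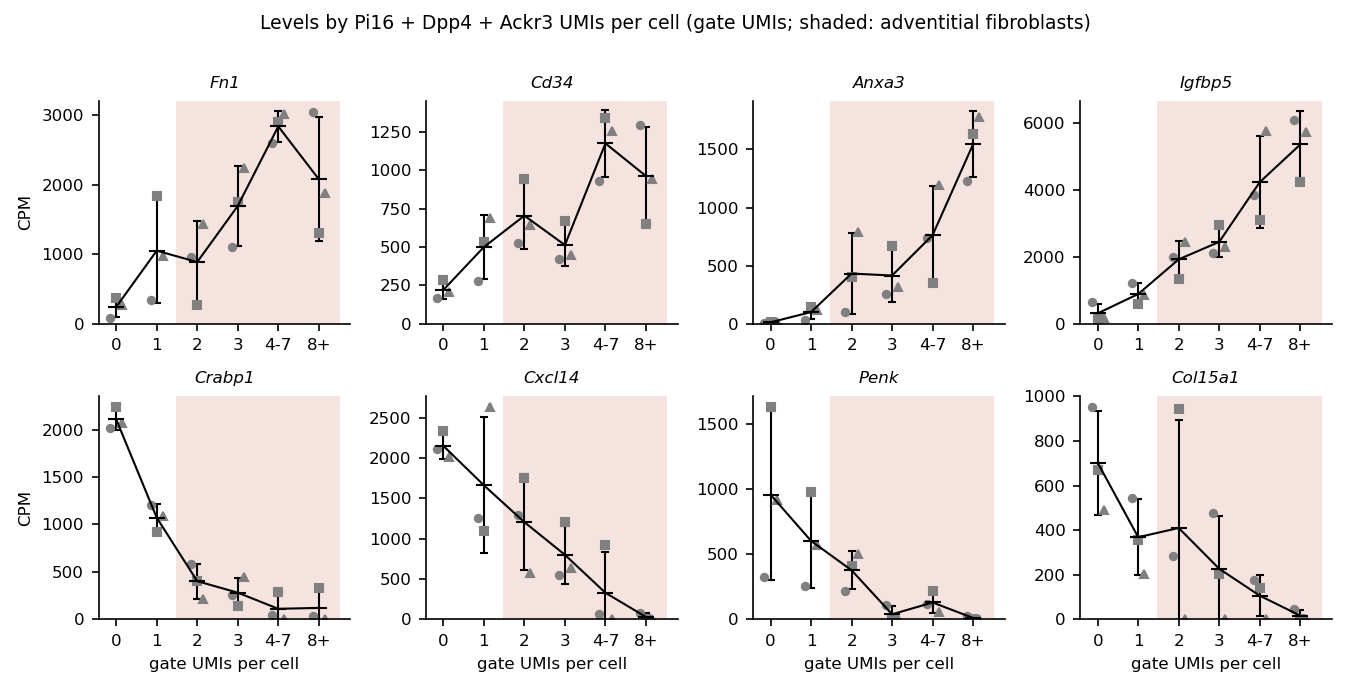
CPM of 8 genes in gated fibroblasts grouped by their UMIs of *Pi16*, *Dpp4* and *Ackr3* (0, 1, 2, 3, 4 to 7, 8 or more); grey symbols are the libraries (circle female, square male 1, triangle male 2), lines and bars the mean ± SD, and the shaded range holds the adventitial fibroblasts. The means of *Anxa3* and *Igfbp5* go up and those of *Crabp1*, *Cxcl14* and *Penk* go down across the gate, but not evenly from bin to bin. *Anxa3* is at a mean of 101 CPM at 1 UMI, 432 at 2 and 416 at 3, and *Penk* at 36.6 CPM at 3 and 127 at 4 to 7. The bin of 8 or more holds only 3 and 8 cells in the male libraries.

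The adventitial fibroblasts were not uniform. At least 2 UMIs of *Penk*, *Crabp1* and *Cxcl14* were present in 34, 11 and 6 of them (18.0% of 283), and 143, 24 and 46 had none. In those with the parenchymal UMIs, *Fn1* was at 826, 671 and 278 CPM, against 2949, 2364 and 2399 CPM in those without. *Igfbp5* was at 1310, 192 and 417 CPM against 5839, 3783 and 4630 CPM, and *Anxa3* at 158, 0 and 0 CPM against 1109, 837 and 1136 CPM. In the male libraries, those with the parenchymal UMIs held 7 and 2 UMIs of *Fn1*, 2 and 3 of *Igfbp5* and none of *Anxa3*. A level read as 0 there covers anything up to 288 and 417 CPM (3 UMIs). Every library showed the same direction for these 3 genes. *Pi16* itself was at 1240, 3069 and 1389 CPM against 2863, 3346 and 4188 CPM. The split uses genes of the same cells and is a description, and doublets of an adventitial and a parenchymal cell cannot be told apart from single cells with both programmes.

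Between libraries, the adventitial fibroblasts were compared by fold only, and no test of sex was possible. The 4354 genes looked at had at least 20 UMIs in at least 1 library. They lay outside the list of tear-product genes left out of the CPM totals, which does not hold every acinar product. Of these, 5 (0.115%) were at least 4-fold higher in the female library than in both male libraries. Another 5 (0.115%) were at least 4-fold lower, each with at least 20 UMIs in both male libraries. Counts under 3 UMIs were read as 3 (75.9 and 52.9 CPM in the male libraries). A gene at a low level in the female library could therefore not reach 4-fold higher, and these counts do not show how many genes differ. The 5 lower genes (*Wfdc12*, *Gm8978*, *2310057J18Rik*, *Lipo1* and *9530002B09Rik*) and, among the higher, *Gm14743* and *Amy1* showed the same direction in other gated fibroblasts. The paper describes *Amy1* as secreted by the LG into tears and names *Wfdc12* among acinar transcripts. *Amy1* was at 496, 25.3 and 35.3 CPM against 704, 53.0 and 47.9 CPM in the other gated fibroblasts. *Wfdc12* was at 75.8, 6726 and 8393 CPM against 103, 6548 and 7277 CPM. The part that free RNA had in the differences of these genes was not tested. *Xist* marked the female library. *Cdkn1c*, a cell cycle inhibitor, was at 379, 25.3 and 35.3 CPM in adventitial fibroblasts and 210, 69.1 and 60.5 CPM in the others. *Postn*, which encodes the matricellular protein periostin, was at 512, 25.3 and 17.6 CPM in adventitial fibroblasts and 54.3, 43.4 and 42.8 CPM in the others. Its UMIs lay in 93 of 192 adventitial fibroblasts of the female library, in 1 of 37 and in 1 of 54, and no cell of the female library held more than 18 of the 311 UMIs. Here too an effect of sex cannot be told apart from one of core or date.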

How the data were processed

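Per the paper's methods and the submitters' processing notes, the authors aligned and counted the reads with Cell Ranger 6.1.2, and the notes name mm10. The deposited values are raw UMI counts, to which neither the authors' correction for free RNA nor their doublet removal had been applied, and they were used unaltered. Cells were gated as described above, and the members and gene lists were chosen with earlier results of these data known. UMIs were summed per library and set of cells and tested with edgeR 4.0.16 (R 4.3.3; filterByExpr, TMM, glmQLFit, glmQLFTest) in a design of library and set, where the 2 sets of cells within each library were treated as paired, having come from the same suspension. The 12 gate genes carry no test, nor do *Penk*, *Crabp1* and *Cxcl14* where they chose the other side. Genes named outside the lists are those with a mean of at least 50 CPM in the higher set and the largest differences among the calls with the same direction in all libraries (15 higher and 10 lower, and 8 and 6 in the narrower comparison, without tear-product, mitochondrial, ribosomal and predicted genes), and those 4-fold apart between the female and both male libraries. One gene that this rule picks is not reported here. Doublets were scored with scrublet in scanpy 1.11.5 and removed only as an alternative. Free RNA was profiled from uncalled barcodes of 10 to 100 UMIs. Coordinates are from GENCODE M21, which held 99.6% of the gene IDs. On simulated counts the test called 31.1% of genes changed 2-fold, 95.8% changed 4-fold and 0.0923% of unchanged genes, in a step with 6266 genes. Alternatives were DESeq2 1.42.0, other scalings, filters, gates and depths, and each library left out.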

Additional observations from a re-analysis of the deposited data

Results flagged for a closer look

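*Postn* was higher in the adventitial fibroblasts of the female library and lower in those of both male libraries, with 512, 25.3 and 17.6 CPM against 54.3, 43.4 and 42.8 CPM in the other gated fibroblasts. The pooled difference of 2.35 on the log2 scale therefore describes the female library alone, the male levels stood on 1 UMI each, and the call was lost with DESeq2 and with free RNA subtracted. *Plac8* was near level in the female library and lower in both male libraries, with 634, 455 and 353 CPM against 602, 1181 and 1055 CPM. In the female library 58.9% of the adventitial and 60.8% of the other gated fibroblasts had a UMI of it. Its pooled difference was -0.87. The call of *Plac8* was lost in 8 of 19 alternatives, among them those without male library 1 and without male library 2 (edgeR adjusted p = 0.42). Whether the difference depended on the sex of the library was not tested for either gene, since there was 1 female library.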

How the results depend on the processing

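Counts of calls depended on the setting more than the named genes did. Against the other gated fibroblasts, 296 genes were higher and 346 lower, and the counts were 145 and 128 with DESeq2, 150 and 138 with no replicate block (the fit that ignores that both sets of a library were paired by their suspension), 162 and 179 in cells of 1000 to 6000 UMIs outside tear-product genes, and 135 and 153 with free RNA subtracted. Leaving out each library in turn gave 80 to 308 higher and 99 to 324 lower, lowest without the female library. Against the fibroblasts with *Penk*, *Crabp1* or *Cxcl14* UMIs, where 284 were higher and 349 lower, the counts were in the same order 138 and 125, 135 and 128, 139 and 168, and 155 and 181, and leaving out each library gave 124 to 334 and 141 to 287. For all these the cause was not tested, except that leaving out a library takes away samples. The share of adventitial fibroblasts was 8.02, 2.12 and 5.11% with a gate of 4 UMIs, 6.60 and 3.07% in the female library and male library 1 after thinning, and 8.30 and 15.0% in the male libraries in cells of 1000 to 6000 UMIs. Of 3747 values of 219 gene results under alternatives, 3363 kept direction and side of the threshold, 371 lost and 6 gained the call, and 7 reversed. *Has1*, not called, went to -0.11 with DESeq2 and -0.66 with no replicate block, and in the narrower comparison to -0.091 and -0.64. Leaving out each library gave it -1.90 to 1.35 and -1.93 to 1.43, and gave *Sparcl1* -1.12 to 0.070 in the narrower comparison, reversed without the female library. The gate of 4 UMIs moved the median of all genes to -0.19 and testing with no filter on low counts to -0.29. Of the alternatives, the comparator without mural-marker cells and the gate of *Pi16* alone were added after seeing the data. So were both sets without cells of at least 2 UMIs of *Pdgfrl* and *Fxyd6*. The adventitial fibroblasts with fewer than 2 UMIs of *Penk*, *Crabp1* and *Cxcl14* were added then too. The comparison with the *Pdgfrl* or *Fxyd6* fibroblasts and its alternatives were not run, with 2 cells and 1 cell in the male libraries. The sexes could not be compared in pairs, since they share only 1 replicate number, which names no pairing. The male libraries limit what could be seen, since 1 UMI there stands for 25.3 and 17.6 CPM.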

Other observations

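Cell cycle genes summed to 31.3, 531 and 35.3 CPM in the adventitial fibroblasts of the libraries, in the order used above, and 20 of the 21 UMIs of male library 1 (95.2%) lay in 1 cell. Genes of the *Pdgfrl* and *Fxyd6* fibroblasts (5 tested, 5 higher, median 1.97) were higher in adventitial than in other gated fibroblasts, and 18 of the 283 cells had at least 2 UMIs of *Pdgfrl* and *Fxyd6*. *Pdgfrl* was at 85.7, 126 and 17.6 CPM against 17.6, 11.2 and 17.6 CPM and *Fxyd6* at 67.6, 101 and 17.6 CPM against 17.3, 11.2 and 10.1 CPM. The adventitial fibroblasts were also restricted to the 158, 26 and 48 cells with fewer than 2 UMIs of *Penk*, *Crabp1* and *Cxcl14* in sum. In this alternative, added after seeing the data, *Mfap4*, *Cilp* and *Fxyd6* lost the call. *Pdgfrl* and *Tnc* fell under the filter on low counts, so that no call of these 5 genes remained.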
